A study of Mus musculus with 3 samples.

Results

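The p53 target genes described here are Mdm2, Ccng1, Pmaip1, Bbc3, Bax, Perp, Sesn1, Sesn2, Zmat3 and Trp53inp1. They were chosen by name as well-known transcriptional targets of p53, with earlier results of these data known. The genes were matched to probe sets through the gene symbols of the array platform. Of the 10, 9 had a value among 19938 named genes, each from 1 probe set, and Bax was not analysed here. All 9 reached the level filter used for counting, a log2 signal of at least 6.63, the median of all values, in at least 1 array, as did 11808 genes in all, called measured genes below. RNA came from 3 cultures of mouse forestomach fibroblasts described as positive for FSP1, the product of the fibroblast gene S100a4. Each culture was read on 1 Affymetrix array (Mouse Gene 1.0 ST), whose probes lie in exons along the transcript. The first culture was a conditional knockout (cKO) of both Tgfbr2, the type II TGF-beta receptor gene, and Smad4, whose protein is shared by TGF-beta and BMP signaling, and came from normal forestomach. The second was a Tgfbr2 cKO from a forestomach squamous cell carcinoma. The third was wild type, from normal forestomach. All are labelled as coming from a mix of C57BL6 and BALBc mice of either sex, were grown in medium with 10% serum and were used at passage 4 to 6. Which Cre line removed the genes, the age of the mice, and how many animals gave rise to a culture were not given in the sources used here.

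p53 is a transcription factor that is held at a low level by MDM2, the ubiquitin ligase encoded by its own target Mdm2, and that accumulates after DNA damage and other stress. Its targets include feedback regulators of p53, genes of the mitochondrial route to apoptosis, and genes that slow growth or limit oxidative stress. In cultured mouse fibroblasts p53 is best known for arresting the cell cycle, through Cdkn1a, and for its activation by ARF, a product of Cdkn2a. Trp53, which encodes p53, was not analysed here, and neither was Cdkn1a, whose probe set the platform assigns to a pair of genes.

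RefSeq start-site windows (GRCm38.p6) were used for 6 of the 10 genes, Mdm2, Bbc3, Bax, Ccng1, Sesn1 and Sesn2, with 9 windows between them. The other members, Pmaip1 among them, were not searched. The 250 bases before each start were searched for the p53 decamer consensus, the 10-base unit that occurs in pairs in a full p53 response element. The consensus reads the same on both strands. It was matched in 4 of the 9 windows, in Mdm2, Bax, Ccng1 and the second start of Sesn1, and in 7.13% of all 32851 windows of the same length. No match was found in the windows of Bbc3 and Sesn2 or at the first start of Sesn1, which says only that these letters are absent there. The 3 windows that carry a match and belong to a gene with a value are shown, with the decamer in capitals, because these genes did not share a pattern across the arrays. They lie at chr10:117710759-117711008 on the minus strand for Mdm2, at chr11:40755287-40755536 on the minus strand for Ccng1, and at chr10:41887189-41887438 on the plus strand for Sesn1.
Mdm2: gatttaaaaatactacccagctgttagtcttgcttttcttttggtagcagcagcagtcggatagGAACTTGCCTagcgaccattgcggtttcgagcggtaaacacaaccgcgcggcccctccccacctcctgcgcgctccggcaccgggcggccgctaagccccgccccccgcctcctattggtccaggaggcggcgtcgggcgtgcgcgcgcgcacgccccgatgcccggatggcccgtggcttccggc
Ccng1: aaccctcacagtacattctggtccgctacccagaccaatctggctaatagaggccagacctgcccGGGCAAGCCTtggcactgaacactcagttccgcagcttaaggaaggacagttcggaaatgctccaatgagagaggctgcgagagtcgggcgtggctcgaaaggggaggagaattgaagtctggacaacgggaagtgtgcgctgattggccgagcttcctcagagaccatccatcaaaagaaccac
Sesn1: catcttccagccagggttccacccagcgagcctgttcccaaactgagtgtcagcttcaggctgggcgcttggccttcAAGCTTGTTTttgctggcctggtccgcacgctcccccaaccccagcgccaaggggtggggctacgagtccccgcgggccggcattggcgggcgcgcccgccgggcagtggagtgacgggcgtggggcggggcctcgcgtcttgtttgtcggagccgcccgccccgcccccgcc
The decamer began 186 bases before the start in Mdm2, 185 in Ccng1 and 173 in Sesn1. A match describes the letters and is not a site of binding.

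The arrays were checked before the genes were compared. Median log2 signals were 6.63 in each array. Tgfbr2 had levels of 10.29, 10.25 and 10.25 in the Tgfbr2/Smad4 cKO, Tgfbr2 cKO and wild-type arrays, and Smad4 of 11.04, 11.06 and 11.06, so the transcript-level values do not show the deletions and the cultures are named as labelled. Fibroblast markers were present, with 13, 13 and 12 of 13 above the filter in the Tgfbr2/Smad4 cKO, Tgfbr2 cKO and wild-type arrays. Markers of other cells were partly above it, with 3, 4 and 4 of 11 epithelial markers, 4, 4 and 4 of 8 leukocyte markers and 1, 1 and 1 of 7 endothelial markers in the same order. Mesothelial markers had 3, 4 and 5 of 7 above it and smooth muscle markers 6, 6 and 6 of 7. Epcam, Ptprc and Pecam1, picked after their values were seen, were under the filter in every array. The epithelial and mesothelial keratin gene Krt19 had log2 signals of 6.93, 9.25 and 8.82 and the macrophage gene Lyz2 of 7.75, 9.52 and 8.70. Xist had log2 signals of 9.44, 5.35 and 5.33 in the same order and the Y-linked gene Eif2s3y of 5.01, 10.00 and 10.12, a female pattern in the first array and a male pattern in the others. Against wild type, genotype, sex and culture therefore cannot be told apart for the Tgfbr2/Smad4 cKO array. Nor can genotype, tissue of origin and culture for the Tgfbr2 cKO array. Between the Tgfbr2/Smad4 cKO and Tgfbr2 cKO arrays, genotype, sex, tissue of origin and culture all differ and cannot be told apart. Because each culture was read once, differences between arrays have no measured error and were not tested, and precision is limited by there being 3 arrays. Each array read a whole culture, so fewer cells with a transcript and less transcript per cell cannot be told apart.

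In the Tgfbr2/Smad4 cKO array 1 p53 target, the proapoptotic gene Pmaip1, was far lower than in wild type, and 6 others were higher by less than 2-fold. Sesn1, Perp and Sesn2 led these, at 1.45-fold, 1.39-fold and 1.28-fold over wild type, followed by Trp53inp1, Ccng1 and Bbc3. Mdm2 and Zmat3 had the same value in every array. In the Tgfbr2 cKO array only Perp was more than 0.1 from wild type on the log2 scale among the 9 genes, and it was lower.

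**Figure D1:**
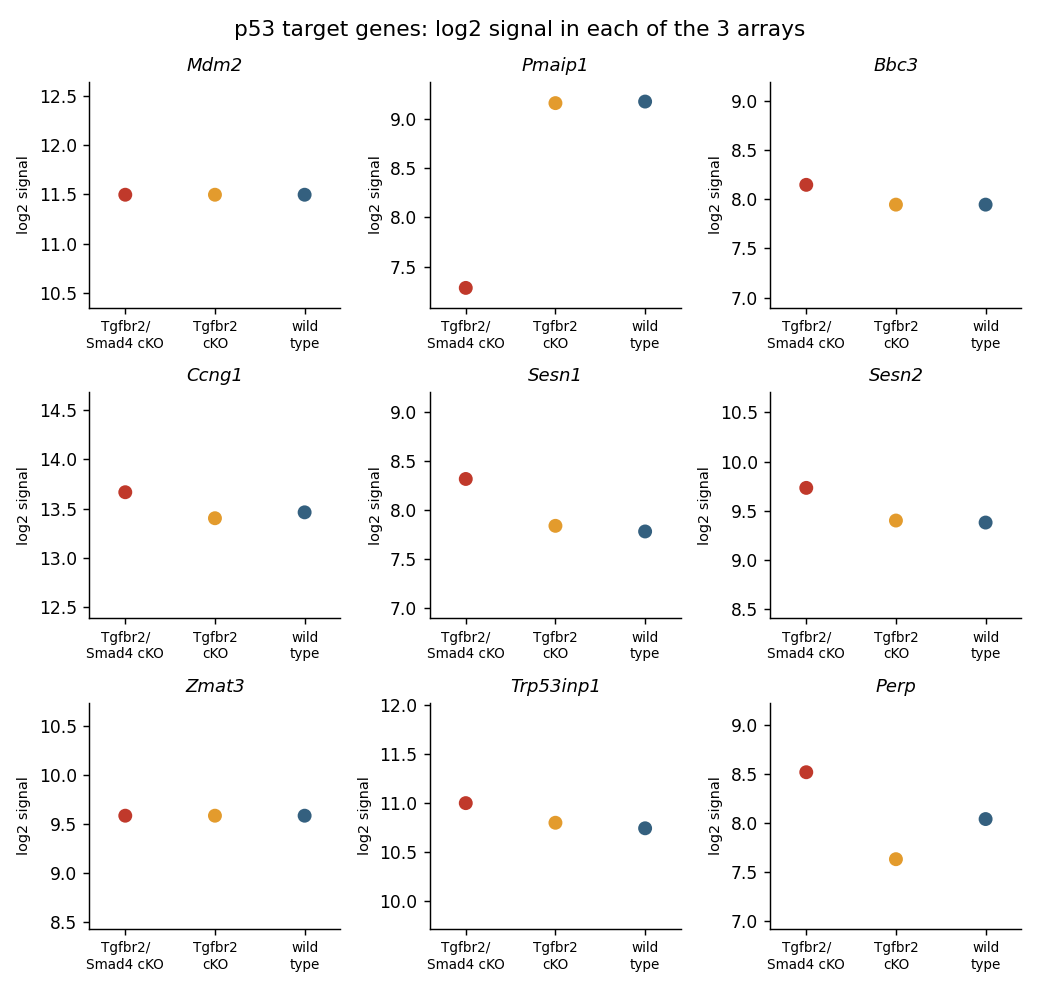
Log2 signal (vertical axes, each spanning 2.3 units) of the 9 p53 target genes in the Tgfbr2/Smad4 cKO, Tgfbr2 cKO and wild-type arrays (horizontal axes), with 1 point per array and no error bars because each culture has 1 array. Pmaip1 stands at 7.28 in the Tgfbr2/Smad4 cKO array against 9.16 and 9.18 in the others, Perp is lowest in the Tgfbr2 cKO array, and Mdm2 and Zmat3 are flat.

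Of the feedback regulators, Mdm2 encodes the ligase that ubiquitinates p53. Its log2 signal was 11.50 in the Tgfbr2/Smad4 cKO array, 11.50 in the Tgfbr2 cKO array and 11.50 in the wild-type array. These values were equal to within 1e-09, as were those of 32.7% of measured genes across all 3 arrays, so a small difference could be hidden. Zmat3, which encodes a zinc-finger protein that binds RNA, was likewise equal, at 9.58, 9.58 and 9.58 in the same order. Ccng1 encodes cyclin G1, which brings the phosphatase PP2A to MDM2. It had log2 signals of 13.67 in the Tgfbr2/Smad4 cKO array, 13.40 in the Tgfbr2 cKO array and 13.46 in the wild-type array, highest in the first. Its log2 difference was 0.20 for Tgfbr2/Smad4 cKO minus wild type, 0.26 for Tgfbr2/Smad4 cKO minus Tgfbr2 cKO and -0.06 for Tgfbr2 cKO minus wild type. At the first of these differences or above it stood 1403 of 11808 measured genes, or 11.9%.

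Of the genes that act in mitochondrial apoptosis, Pmaip1 encodes NOXA, a BH3-only protein that binds the survival protein MCL1. Its log2 signal was 7.28 in the Tgfbr2/Smad4 cKO array, 9.16 in the Tgfbr2 cKO array and 9.18 in the wild-type array. The Tgfbr2/Smad4 cKO array was thus apart from the others, which were 0.02 apart. Pmaip1 was 3.72-fold lower in Tgfbr2/Smad4 cKO than in wild type, a log2 difference of -1.90, and 3.68-fold lower than in Tgfbr2 cKO, at -1.88. Only 49 measured genes, or 0.415%, had a difference from wild type as low or lower, Pmaip1 included. Bbc3 encodes PUMA, the other BH3-only protein of the group. Its log2 signal was 8.15 in the Tgfbr2/Smad4 cKO array, 7.95 in the Tgfbr2 cKO array and 7.95 in the wild-type array, a difference of 0.20 from each of the others. Bbc3 and Pmaip1 thus lay on opposite sides of wild type in the Tgfbr2/Smad4 cKO array.

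Perp encodes a tetraspan membrane protein that takes part in p53-dependent apoptosis and, in stratified epithelium, in desmosomes. Its log2 signal was 8.51 in the Tgfbr2/Smad4 cKO array, 7.63 in the Tgfbr2 cKO array and 8.04 in the wild-type array. It was the only one of the 9 genes with wild type between the other arrays by more than 0.1 on each side. The log2 difference was 0.48 for Tgfbr2/Smad4 cKO minus wild type, 0.88 or 1.85-fold for Tgfbr2/Smad4 cKO minus Tgfbr2 cKO, and -0.41 for Tgfbr2 cKO minus wild type. The last was 1.33-fold lower, and 50 of 11808 measured genes, or 0.423%, were as low or lower in that comparison. Of 10 desmosome genes with a value, 5 were measured. The log2 differences of Pkp2 and Dsp, which encode plakophilin 2 and desmoplakin, were -0.90 and -0.49 for Tgfbr2/Smad4 cKO minus wild type, while that of Jup, which encodes plakoglobin, was 0.38. Over the 5 measured genes the median was -0.36 there, against 0 for all measured genes.

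Of the stress and growth regulators, Sesn1 and Sesn2 encode sestrins, which restrain mTORC1 signaling and oxidative stress. Sesn1 had log2 signals of 8.32 in the Tgfbr2/Smad4 cKO array, 7.84 in the Tgfbr2 cKO array and 7.78 in the wild-type array. Sesn2 had log2 signals of 9.73 in the Tgfbr2/Smad4 cKO array, 9.40 in the Tgfbr2 cKO array and 9.38 in the wild-type array. Both were highest in the Tgfbr2/Smad4 cKO array and within 0.06 in the others. Their log2 differences from wild type were 0.53 and 0.35, and 3.87% and 6.62% of measured genes stood as high or higher. The third sestrin gene, Sesn3, best known as a target of FOXO factors and no member of the 10, had log2 signals of 10.00, 9.19 and 9.13 in the Tgfbr2/Smad4 cKO, Tgfbr2 cKO and wild-type arrays, a difference of 0.86 from wild type. Trp53inp1 encodes a p53-induced nuclear protein that also takes part in autophagy. It had log2 signals of 11.00 in the Tgfbr2/Smad4 cKO array, 10.80 in the Tgfbr2 cKO array and 10.74 in the wild-type array, so that its difference from wild type was 0.26 in the first and 0.06 in the second.

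**Figure D2:**
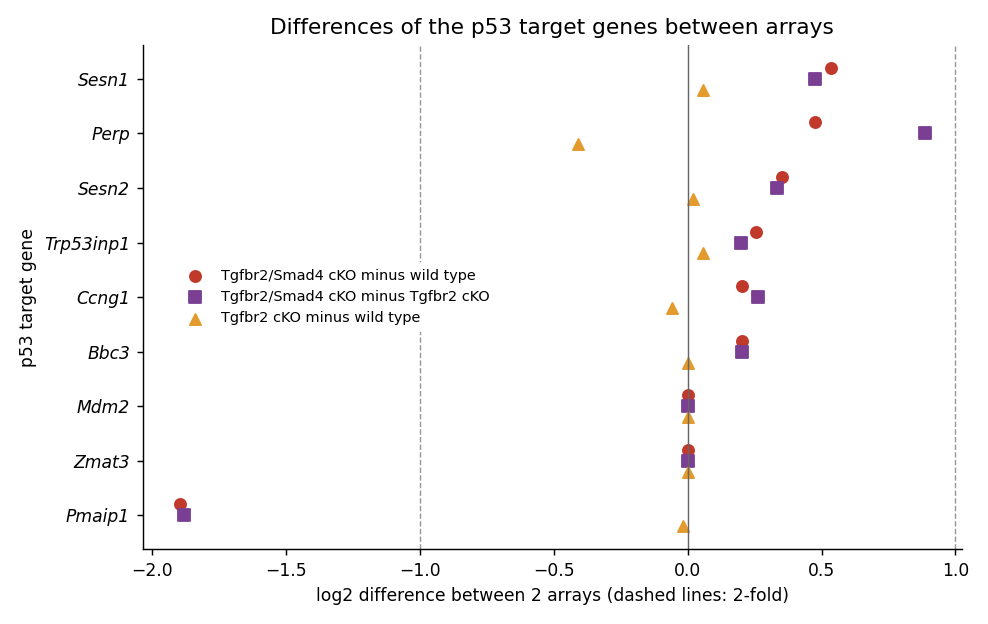
Log2 difference between a pair of arrays (horizontal axis) for the 9 p53 target genes (vertical axis), with circles for Tgfbr2/Smad4 cKO minus wild type, squares for Tgfbr2/Smad4 cKO minus Tgfbr2 cKO and triangles for Tgfbr2 cKO minus wild type. Pmaip1 at -1.90 and -1.88 is the gene beyond the dashed 2-fold lines, and the triangles stay within 0.06 of 0 except for Perp at -0.41.

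Counted together, 6 of the 9 genes were above 0 in Tgfbr2/Smad4 cKO relative to wild type, 1 was below and 2 were equal, with a median of 0.20. Over all 11808 measured genes 31.1% were above 0, 32.2% below and 36.7% equal, with a median of 0. At least 2-fold apart were 0 of the 9 on the higher side and 1, Pmaip1, on the lower side, beside 1.22% and 2.18% of measured genes. For Tgfbr2/Smad4 cKO minus Tgfbr2 cKO the counts were again 6 above, 1 below and 2 equal, with a median of 0.20, beside 30.2%, 33.7% and 36.1% of measured genes. The 2-fold counts were again 0 higher and 1 lower, beside 1.32% and 2.25%. These comparisons share the Tgfbr2/Smad4 cKO array, so their likeness is no separate observation. For Tgfbr2 cKO minus wild type 3 of the 9 were above 0, 3 below and 3 equal, with a median of 0, beside 25.8%, 19.0% and 55.1% of measured genes. None of the 9 was 2-fold apart there, and 0.0254% of measured genes were 2-fold higher and 0.00847% lower, that is 3 and 1 genes, or 3 and 2 after cyclic loess normalization. A list of 9 genes chosen by name is small, and the counts describe these arrays.

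**Figure D3:**
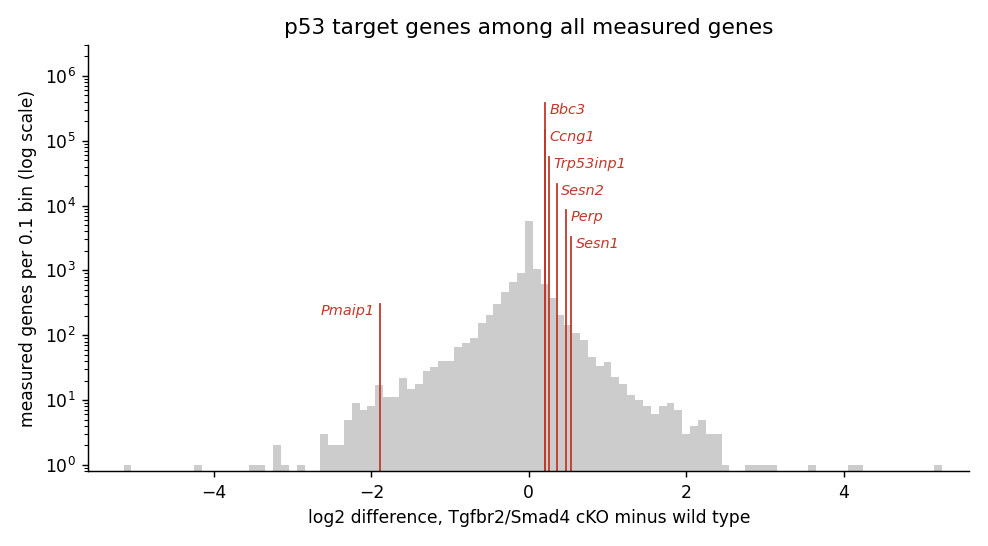
Distribution of the log2 difference Tgfbr2/Smad4 cKO minus wild type (horizontal axis) over 11808 measured genes (grey bars, number of genes per bin of 0.1 on a log scale), with a red line at each p53 target gene that was not equal in the pair, drawn at different heights only to fit the names. The 6 higher genes stand between 0.20 and 0.53, in the upper flank of the distribution, and Pmaip1 stands at -1.90 in the lower tail.

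By the distance between 3 log2 levels, each taken relative to the mean of its gene, the 5 measured genes most like Pmaip1 over the 3 arrays were Nup62cl, Mcm6, Cdc25c, Crip1 and Pbk, of which Mcm6 and Cdc25c also belong to the list of proliferation genes described further on. Their log2 differences for Tgfbr2/Smad4 cKO minus wild type were -1.87, -1.95, -1.84, -1.85 and -2.01. Nup62cl and Cdc25c were under the filter in the Tgfbr2/Smad4 cKO array, at 6.01 and 5.65. With 3 arrays such a likeness says little more than that a gene is low in the first and level in the others.

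Other p53 targets, named from general knowledge and partly from human cells, were followed in 4 lists. These lists were chosen with earlier results of these data known, so their counts describe these arrays and are no independent support. Of 62 such genes 56 had a value and 54 were measured. In Tgfbr2/Smad4 cKO against wild type 32 were above 0, 7 below and 15 equal, with a median of 0.11, beside 31.1%, 32.2% and 36.7% of all measured genes and their median of 0. At least 2-fold higher were 4 and lower 0, beside 1.22% and 2.18% of measured genes. One of the 4, Casp1, passed the filter through the Tgfbr2/Smad4 cKO array alone, where it was high, so its call follows from the filter in part. For Tgfbr2/Smad4 cKO minus Tgfbr2 cKO 34 were above 0, 8 below and 12 equal, with a median of 0.14, beside 30.2%, 33.7% and 36.1% of measured genes. At least 2-fold higher were 5, Casp1 again included, and lower 0, beside 1.32% and 2.25%. For Tgfbr2 cKO minus wild type 11 were above 0, 19 below and 24 equal, with a median of 0, beside 25.8%, 19.0% and 55.1% of measured genes, and 0 were at least 2-fold apart, beside 0.0254% higher and 0.00847% lower.

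Among the targets linked to apoptosis, 2 of 16 were at least 2-fold higher in Tgfbr2/Smad4 cKO than in wild type, Steap3 and, with the limit just given, Casp1, and 0 lower. Over all measured genes 1.22% were at least 2-fold higher in that comparison and 2.18% lower. Steap3, a metalloreductase gene known as TSAP6 for its part in p53-driven vesicle release, had log2 signals of 10.51 in the Tgfbr2/Smad4 cKO array, 8.19 in the Tgfbr2 cKO array and 8.35 in the wild-type array, 4.49-fold above wild type in the first. Casp1, the inflammatory caspase gene, had log2 signals of 6.91, 5.76 and 5.17 in the same order, the last 2 of them under the filter. The death receptor gene Fas had log2 signals of 10.15, 9.00 and 9.25, which put Tgfbr2/Smad4 cKO 1.87-fold above wild type and 2.22-fold above Tgfbr2 cKO. The list median was 0.04. Among secreted and surface products 2 of 10 were at least 2-fold higher and 0 lower, with a median of 0.44. Igfbp3, which encodes a binding protein for insulin-like growth factors, was 3.43-fold higher than in wild type, at log2 signals of 10.67 in the Tgfbr2/Smad4 cKO array, 8.54 in the Tgfbr2 cKO array and 8.89 in the wild-type array. Sulf2, an extracellular heparan sulfatase gene, was 2.87-fold higher, at 11.16, 9.42 and 9.64.

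The cell cycle arrest targets had 0 of 11 measured genes 2-fold apart from wild type in the Tgfbr2/Smad4 cKO array, with a median of 0.13, of which 6 were above 0, 2 below and 3 equal. The antiproliferative gene Btg2 had a log2 difference of 0.68 and the polo-like kinase gene Plk3 of -0.67, the widest on each side. The repair and metabolism targets also had 0 of 17, with a median of 0.13, of which 10 were above 0, 1 below and 6 equal. Over all measured genes 31.1% were above 0 in that comparison, 32.2% below and 36.7% equal. At least 2-fold higher were 1.22% of them and lower 2.18%. The repair or metabolism gene below 0 was Pcna, the replication clamp gene, at -0.78, and the highest of that list was Sesn3.

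Of the regulators and relatives of p53, 21 were measured, and 8 were above 0, 7 below and 6 equal in Tgfbr2/Smad4 cKO against wild type, with a median of 0. Over all measured genes 31.1% were above 0, 32.2% below and 36.7% equal, and 1.22% and 2.18% were at least 2-fold higher and lower. Cdkn2a, whose products are ARF, an inhibitor of MDM2, and the CDK inhibitor p16INK4a, had log2 signals of 11.33 in the Tgfbr2/Smad4 cKO array, 9.54 in the Tgfbr2 cKO array and 9.77 in the wild-type array. It was the 1 gene at least 2-fold higher than in wild type, at 2.95-fold, and its transcript-level value does not separate the products. The checkpoint kinase gene Chek1 was the 1 gene at least 2-fold lower, at 2.19-fold, with log2 signals of 6.84, 7.80 and 7.97. Mdm4, the partner of MDM2 in restraining p53, had a log2 difference of 0.28, and the p53 relative Trp73 of 0.

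The BCL2 family, to which Pmaip1, Bbc3 and Bax belong, had 0 of 14 other measured genes 2-fold apart in any pair of arrays. For Tgfbr2/Smad4 cKO minus wild type its median was 0, with 5 above, 4 below and 5 equal, beside 31.1%, 32.2% and 36.7% of all measured genes. The pore-forming relatives Bok and Bak1 had log2 differences of -0.56 and -0.45, and Mcl1, the survival partner of NOXA, of 0.23. Of 13 measured caspase and apoptosome genes, Birc5, which encodes survivin and is also a mitotic gene, was the 1 at least 2-fold apart, 2.81-fold lower. Over all measured genes 1.22% were at least 2-fold higher in that comparison and 2.18% lower. Pmaip1, at -1.90, lay below every measured gene of these lists.

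**Figure D4:**
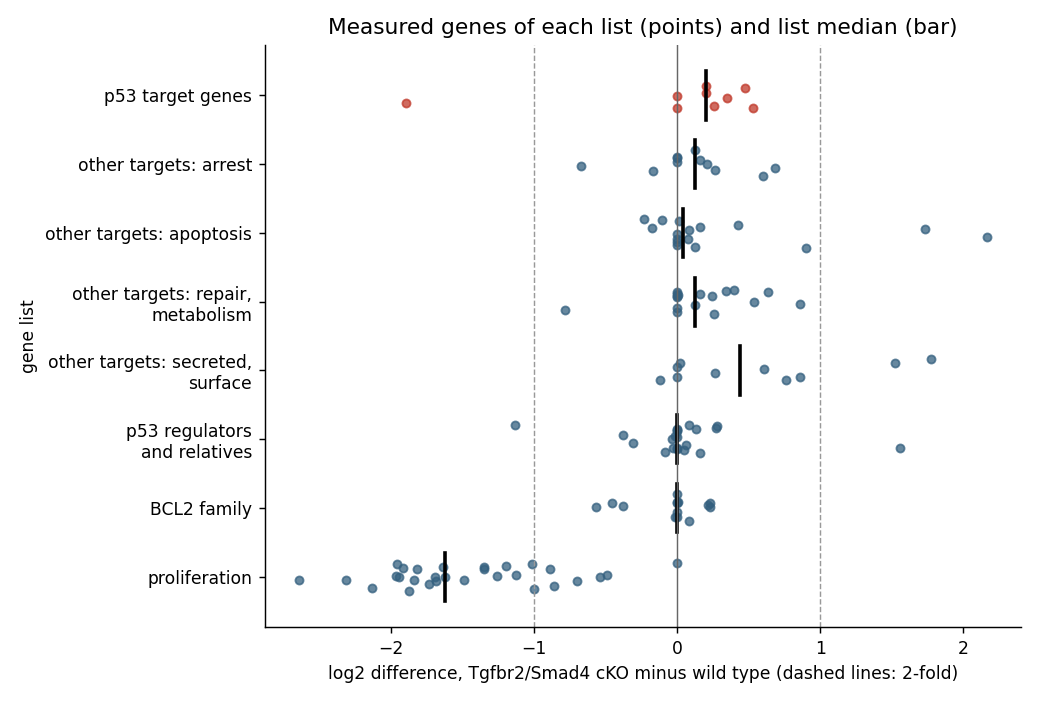
Log2 difference Tgfbr2/Smad4 cKO minus wild type (horizontal axis) of the measured genes in 8 gene lists (vertical axis), with 1 point per gene, scattered vertically for legibility, and a black bar at the list median. The p53 target genes have a median of 0.20 with Pmaip1 at -1.90, the secreted and surface targets a median of 0.44, and the proliferation genes a median of -1.62.

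Other transcripts also differed between these arrays. As background, 1.22% of all measured genes were at least 2-fold higher in Tgfbr2/Smad4 cKO than in wild type and 2.18% lower. The 29 measured proliferation genes include many that p53 represses through the DREAM complex. Of these 29, 22 were at least 2-fold lower in Tgfbr2/Smad4 cKO than in wild type and 0 higher, with a median of -1.62. Their mean log2 signals were 7.58 in the Tgfbr2/Smad4 cKO array, 8.86 in the Tgfbr2 cKO array and 9.03 in the wild-type array. In the Tgfbr2/Smad4 cKO array 5 of the 29 were under the filter, so a call among those follows from the filter in part. Smooth muscle markers had 4 of 6 measured genes at least 2-fold lower and mean log2 signals of 10.29, 11.81 and 11.82. The contractile genes Myh11, Actg2, Des and Cnn1 were those genes, at log2 differences of -3.37, -2.85, -2.06 and -1.62. Mesothelial markers had 3 of 5 measured genes lower, Upk1b, Krt19 and Upk3b, and means of 6.56, 7.29 and 7.62. Upk1b was under the filter in the Tgfbr2/Smad4 cKO array, at 6.21, so its call follows from the filter in part. Epithelial markers had 1 of 4 lower, again Krt19, which both lists hold, and means of 6.22, 6.46 and 6.48. For Tgfbr2 cKO minus wild type 4 of the 5 mesothelial markers were below 0 and 1, Krt19, above. Upk3b was at least 2-fold lower there, at -1.07, and was the 1 such gene among all 11808 measured genes, or 0.00847%. Leukocyte markers had 0 of 4 measured genes at least 2-fold apart from wild type, with Lyz2 3.41-fold lower than in Tgfbr2 cKO, and means of 6.35, 6.67 and 6.50, and endothelial markers of 5.72 in every array. Of the 13 fibroblast markers, Pdgfra, Lum and Fap were at least 2-fold higher in Tgfbr2/Smad4 cKO than in wild type, at 1.40, 1.21 and 1.09. Thy1 was at least 2-fold lower, at -2.36, and the means were 12.21, 12.17 and 12.09. Fap had log2 signals of 7.48, 6.80 and 6.39, the last under the filter, so its call follows from the filter in part. The part of these groups, of sex and of tissue of origin in the values of the p53 targets was not tested.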

How the data were processed

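The deposited values were read as log2 signals of 35556 probe sets in 3 arrays, a unit inferred from their range of 2.82 to 15.6. The array type and transcript-level summary are per the labels. The software, its background correction and scaling, and the genome build were not given in the sources used here. No scaling was added, as the largest gap between array medians was 0.00412. The platform annotation named 21789 probe sets with 1 gene symbol and 1621 with several, and 12146 were unnamed. Symbols were updated through the gene identifier in a RefSeq table (GRCm38.p6) for 21698 probe sets, and probe sets of a gene were averaged, giving 19938 genes. A gene was measured if its highest value reached the median of all values, 6.63.

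Each difference subtracts the log2 signals of a pair of arrays, and with 1 array per group none was tested. A gene was counted as apart at 2-fold or more. Named genes were the members, the members of other lists at least 2-fold apart or else the 2 furthest from wild type in Tgfbr2/Smad4 cKO, and the 5 nearest patterns. Proliferation genes were given as counts. Named outside the rule, after their values were seen, were Mcl1, Mdm4, Trp73, Jup, Epcam, Ptprc, Pecam1, the sex-linked genes, Atf3, Atf4, Ddit3, Rragd, Mios, Wdr24, Wdr59 and Seh1l. The members and all lists were chosen with earlier results of these data known. The counting was tested on simulated data. Alternatives were 3 normalizations, 2 level filters, 2 treatments of probe sets, 32 added to each linear signal, and counting at 1.5-fold or 3-fold. Restricting counts to genes unequal in the pair was added after the data were seen. Python 3.11.15, numpy 2.4.6, pandas 2.3.3, matplotlib 3.10.9, R 4.3.3 and limma 3.58.1 were used.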

Additional observations from a re-analysis of the deposited data

How the results depend on the processing

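The number of p53 targets at least 2-fold apart was 1 when Tgfbr2/Smad4 cKO was compared with wild type, 1 when it was compared with Tgfbr2 cKO and 0 when Tgfbr2 cKO was compared with wild type. These counts were the same under every alternative run except the 1.5-fold size rule, which gave 2 in Tgfbr2/Smad4 cKO against Tgfbr2 cKO by adding Perp. Filtering at the 75th percentile of all values, the targets' medians in the comparisons of Tgfbr2/Smad4 cKO with wild type and with Tgfbr2 cKO were 0.102 and 0.0999, over 6 genes in place of 9, because Sesn1, Bbc3 and Perp dropped out. The other p53 targets and the regulators together had 75 measured genes, of which 6 and 6 were at least 2-fold apart in those comparisons. Over all measured genes 1.22% were 2-fold higher and 2.18% lower in the first, and 1.32% and 2.25% in the second. Of the 75, 16 and 14 were apart at 1.5-fold and 3 and 4 at 3-fold, beside the counts over all 11808 measured genes given below. The 2-fold counts were 4 and 5 of 49 with the stricter filter, and 5 and 5 of 75 with 32 added. Of 207 differences of single p53 targets, 205 stayed within 0.1 of their main value. The other 2 were Pmaip1 at -1.70 and -1.69 with 32 added to each linear signal. Each target has 1 probe set, so the level filters and probe set treatments, though counted in the 207, could not change a difference. Centring the arrays on their medians could move a difference by at most 0.00412, the largest gap between array medians. Only the remaining settings could have moved a value by 0.1. A reversal was looked for only where the main difference was at least 2-fold, that is for Pmaip1, and 0 were found. Mdm2 and Zmat3 have no settled direction, since their differences ran from -0.0173 to 0.0502 and from -0.00412 to 0.0277 over the settings and comparisons. Nor has Bbc3 in Tgfbr2 cKO minus wild type, at -0.00387 to 0.00242. Over all measured genes, 2-fold lower counts in Tgfbr2 cKO minus wild type were 1 in the main setting, 2 after quantile or cyclic loess normalization and 0 with the stricter filter or the offset, and lower counts for Tgfbr2/Smad4 cKO were 147 in place of 257 against wild type and 156 in place of 266 against Tgfbr2 cKO with the stricter filter. At 1.5-fold the higher and lower counts were 25 and 19, 396 and 601, and 401 and 663 for Tgfbr2 cKO and Tgfbr2/Smad4 cKO against wild type and Tgfbr2/Smad4 cKO against Tgfbr2 cKO, and at 3-fold 0 and 0, 55 and 96, and 61 and 100. No paired analysis was possible because each group has 1 array. Signal under the level filter, as for Casp1 in the Tgfbr2 cKO and wild-type arrays, limits what a difference can show.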

Other observations

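The integrated stress response, a pathway that acts through the transcription factor ATF4, shares Sesn2 with the p53 targets. Of its 15 measured genes 8 were above 0, 1 below and 6 equal in Tgfbr2/Smad4 cKO against wild type, beside 31.1%, 32.2% and 36.7% of all measured genes. The median was 0.02, and 0 genes were at least 2-fold apart, beside 1.22% of all measured genes higher and 2.18% lower. Sesn2 itself was the highest at 0.35 and the serine synthesis gene Psat1 the lowest at -0.30. The transcription factor genes Atf4 and Atf3 were equal in the Tgfbr2/Smad4 cKO and wild-type arrays, and Ddit3 differed by 0.17. For Tgfbr2 cKO minus wild type 10 were above 0, 3 below and 2 equal, with a median of 0.02, beside 25.8%, 19.0% and 55.1% of measured genes. The part of this pathway in the level of Sesn2 was not tested.

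Among 22 regulators of mTORC1, the growth-promoting kinase complex that sestrins restrain, the median was 0 in Tgfbr2/Smad4 cKO against wild type, with 9 above, 6 below and 7 equal. Over all measured genes 31.1% were above 0, 32.2% below and 36.7% equal, and 1.22% and 2.18% were at least 2-fold higher and lower. Deptor, which encodes an inhibitory partner of mTOR, was the 1 gene at least 2-fold apart, with log2 signals of 9.81 in the Tgfbr2/Smad4 cKO array, 7.30 in the Tgfbr2 cKO array and 7.39 in the wild-type array, 5.32-fold above wild type in the first. Rragd, a Rag GTPase gene of the same complex's amino acid input, had a difference of -0.76. Mios and Wdr24, subunit genes of the GATOR2 complex that sestrins bind in human cells, had differences of 0.31 and 0.07, and those of Wdr59 and Seh1l were 0 and -0.02.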
